A study of Mus musculus with 6 samples.

Results

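Chac1 and 9 further genes of the integrated stress response were followed in mouse quadriceps, a thigh muscle of mainly fast fibres, with and without muscle Klf15. The set holds the 10 symbols Chac1, Atf4, Atf5, Ddit3, Trib3, Asns, Psat1, Phgdh, Mthfd2 and Sesn2, and each matched 1 of the 23314 rows of the authors' table. The control group, MyoCre, had the genotype Myogenin-Cre/+, in which the promoter of Myogenin, a myogenic factor of differentiating myoblasts, drives 1 copy of Cre. The knockout group, K15SKO, had the genotype Myogenin-Cre/+;K15F/F, which joins the same Cre to floxed Klf15 alleles. Both groups therefore carried the Cre, all animals were 2 months old, and cells of the muscle in which Myogenin is never switched on keep their Klf15. Each group had 3 libraries, whereas the design text speaks of n = 4. Whether each library had its own animal is not stated in the labels, so p-values cover only the spread of these samples, which may be technical. Values listed in threes below are in the order of libraries 1 to 3; the MyoCre libraries are called controls and the K15SKO libraries knockouts.

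Cells run the integrated stress response when kinases that sense a lack of amino acids, misfolded protein in the endoplasmic reticulum, viral RNA or mitochondrial trouble phosphorylate the initiation factor eIF2. Bulk protein synthesis then falls, while the messenger RNA of the transcription factor ATF4 is translated better, so that ATF4 protein can increase without more Atf4 RNA. ATF4 pairs with other bZIP proteins on C/EBP-ATF response elements and switches on genes of amino acid synthesis and transport, further stress factors, and Chac1. The Chac1 protein cleaves glutathione, the main small thiol of the cell. In skeletal muscle the response is known from mitochondrial disease, fasting and wasting.

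The response element links several of the 10 genes, so the promoter windows of RefSeq (GRCm38.p6, from 250 bases before to 50 after each start) were searched on both strands. All 10 genes matched, with 12 windows in all. The motif TGATGNAA, the core of the C/EBP-ATF response element, was in 3 of the 12 windows, those of Chac1, Trib3 and Asns, and in 3.97% of all 32851 windows. The stretch upstream of Chac1 (GRCm38, chr2:119350992-119351228, plus strand, up to the base before the GENCODE start) is shown because Chac1 differed most clearly between the genotypes, and its capitals mark from left to right a TGACGNAA match, the TGATGNAA match on the opposite strand and a GC-rich box of the form CCCCNCCC.
Chac1: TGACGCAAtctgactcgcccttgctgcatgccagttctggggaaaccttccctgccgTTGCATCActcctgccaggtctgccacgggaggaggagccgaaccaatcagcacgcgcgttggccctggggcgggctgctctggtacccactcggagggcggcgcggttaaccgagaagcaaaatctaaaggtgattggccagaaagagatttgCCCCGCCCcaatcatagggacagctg

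The 3 matches to TGATGNAA are set side by side with their flanking bases, each read on the strand that carries the motif. Capitals mark the core by which they were found.
Chac1: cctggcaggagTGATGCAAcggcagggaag
Trib3: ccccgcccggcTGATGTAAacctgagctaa
Asns: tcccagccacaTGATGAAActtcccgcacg
They lie at chr2:119351038-119351067 on the minus strand, chr2:152344028-152344057 on the plus strand and chr6:7693214-7693243 on the minus strand of GRCm38. The motif of Chac1 starts 193 bases and that of Asns 23 bases before the RefSeq start, and that of Trib3 starts at base 15 after it. The form TGACGNAA, which was added after the Chac1 sequence had been read, was in 1 of the 12 windows and in 1.59% of all. The box CCCCNCCC, of the kind that Krüppel-like factors such as Klf15 bind, was in 7 of the 12 windows, those of 6 genes, and in 33.2% of all windows. Neither the cAMP response element TGACGTCA nor the endoplasmic reticulum stress element was in any of the 12 windows, and they were in 1.79% and 0.12% of all windows. Such matches are descriptions of letters, not evidence of binding.

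Transcripts in total RNA were sequenced, and levels are given in FPKM, that is, relative to transcript length and to the size of the library. This allows genes to be compared per length. Depth relative to MyoCre 1, read from the steps between values under 0.1 FPKM, ran from 1.08 to 1.31 in the other controls and from 0.74 to 1.56 in the knockouts; the absolute depth is unknown. Klf15 itself was at 35.2, 28.4 and 30.5 FPKM in the controls and at 2.22, 21.7 and 5.32 FPKM in the knockouts. In the library labelled K15SKO 2 Klf15 was at 69.3% of the MyoCre mean, below all controls but not at the level its label implies. Fibre genes were abundant in every library, with Tnnc2, the fast troponin C, at 9431 to 16667 FPKM, and 4 of 13 fibre markers were not analysed here. The fibre list was lower in K15SKO 1 and 2, where 8 of its 9 measured markers were below all controls and the sums were 37511 and 38267 FPKM against 52844 to 61911 FPKM. Des, the intermediate filament of muscle, was the 1 above them, and the sum of K15SKO 3, 61084 FPKM, was within the control range. The K15SKO libraries were unlike one another. Markers of regenerating or denervated fibres summed to 150 and 119 FPKM in K15SKO 1 and 2 and to 41.1 FPKM in K15SKO 3, against 37.6 to 45.3 FPKM in the controls. Macrophage markers summed to 475 and 261 FPKM in K15SKO 1 and 2 and to 43.8 FPKM in K15SKO 3, against 47.5 to 57.7 FPKM in the controls. Hepatocyte markers summed to 94.9, 6711 and 20.8 FPKM in the knockouts, against 20.9 to 39.4 FPKM in the controls, where Hp and Trf made up most of the sum. Marker by marker, 13, 15 and 13 of the 15 were above all controls in K15SKO 1 to 3, and 13 had groups without overlap. Alb was at 21.1, 2203 and 4.36 FPKM in the knockouts against 0.298 to 1.13 FPKM, above every control in all 3 and by far the highest in K15SKO 2. In such bulk samples fewer cells of a type and less RNA per cell cannot be told apart.

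The comparison asks how RNA levels change once muscle loses Klf15. Chac1 stood 3.33-fold lower in K15SKO on average, below every control in each of its 3 libraries. Psat1 and Mthfd2, enzymes of serine and one-carbon metabolism, stood several-fold higher in K15SKO 1 and 2 and at the control level in K15SKO 3. The transcription factor genes Atf4, Atf5 and Ddit3 had mean levels within 1.14-fold of the controls, and Trib3, Asns, Phgdh and Sesn2 were low in both groups. None of the 10 passed an adjusted p of 0.05 in limma over all genes, where 6 of 11607 genes, or 0.0517%, did. Klf15, the targeted gene, did not pass either, with a log2 difference of −2.06 (K15SKO minus MyoCre, SE 0.66, limma adjusted p = 0.273). At an unadjusted limma p under 0.05 there were 2 members, against 16.5% of all tested genes: Chac1 was lower, as 8.12% of the tested genes were, and Mthfd2 higher, as 8.43% were. Of the 10 genes 8 had a mean of at least 1 FPKM and were tested, Psat1 only through its K15SKO values and Asns only through its MyoCre values, so the counts over those 8 are no support for a shift of the set. With no filter all 10 could be fitted: 0 of 10 passed against 0.0129% of genes, 1 had an unadjusted limma p under 0.05 against 11.3% of 23314 genes, and the median log2 difference was −0.08 against 0.01 over all genes.

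**Figure D1:**
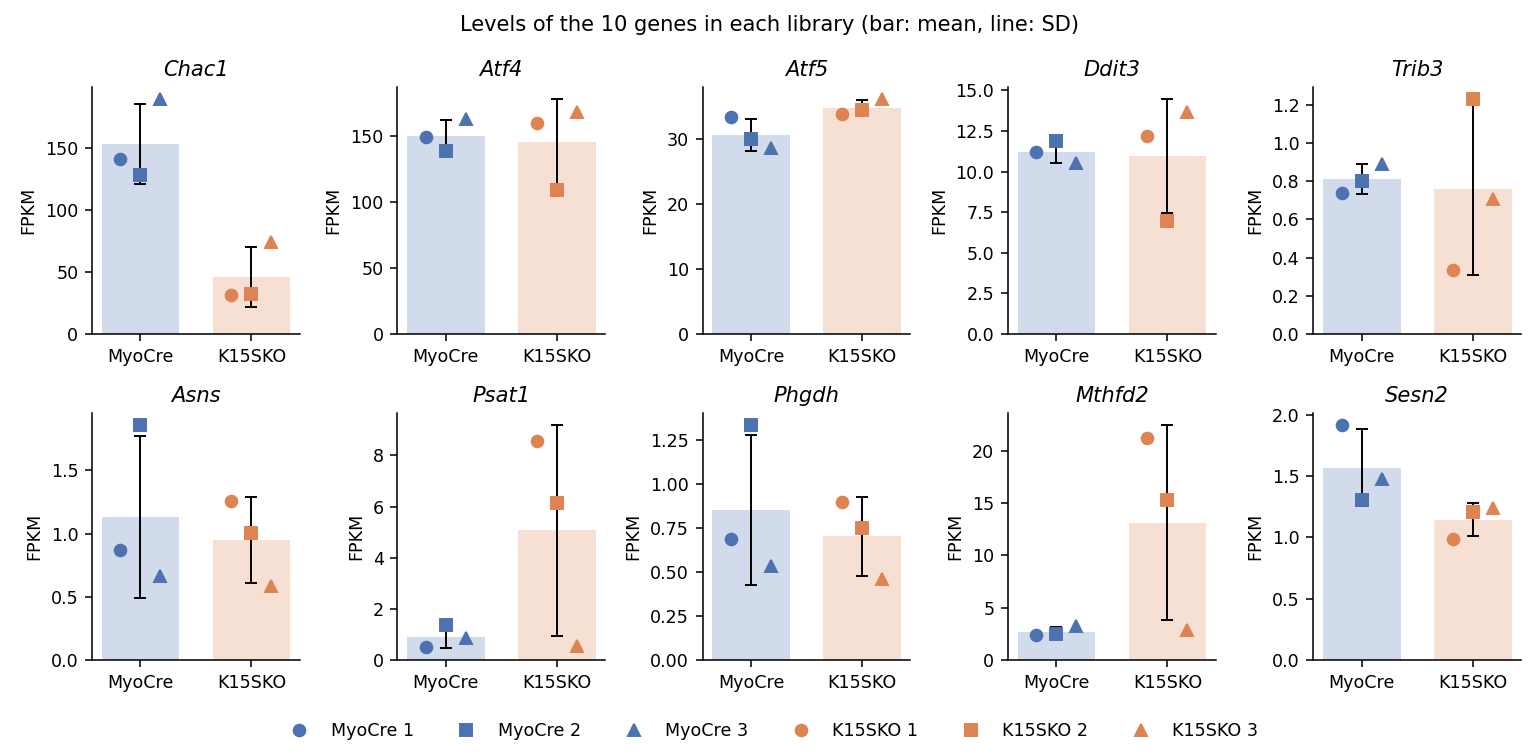
FPKM of the 10 genes in each library (points; bars are group means and lines the SD of 3 libraries), each on its own axis from 0. Chac1 is lower in all K15SKO libraries, between 31.9 and 74.4 FPKM against 129 to 190 FPKM, whereas Psat1 and Mthfd2 are high in K15SKO 1 and 2 alone.

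In the control muscle Chac1 and Atf4 were the most abundant of the 10. Chac1 stood at 153 ± 32.2 FPKM and Atf4 at 150 ± 12.0 FPKM (mean ± SD of 3 libraries), and their ranges overlapped. By MyoCre mean they were the 406th and 420th of the 23314 rows. Atf5 followed at 30.7 ± 2.48 FPKM, Ddit3 at 11.2 ± 0.671 FPKM and Mthfd2 at 2.69 ± 0.452 FPKM, with no overlap between these neighbours or between Mthfd2 and Sesn2, at 1.57 ± 0.314 FPKM (mean ± SD of 3 libraries). Asns, Psat1, Phgdh and Trib3 came last with MyoCre means of 1.13, 0.911, 0.852 and 0.811 FPKM, and the ranges of each neighbouring pair overlapped. In K15SKO the order by mean was Atf4, Chac1, Atf5, Mthfd2, Ddit3 and Psat1, where the ranges of Chac1 and Atf5, of Mthfd2 and Ddit3 and of Ddit3 and Psat1 overlapped. K15SKO 3 alone set Chac1 above Atf5, and in it Mthfd2 was below Ddit3, at 2.91 against 13.7 FPKM. Chac1 thus stood beside Atf4 in the controls and at a mean of 46.1 FPKM in the knockouts, while Mthfd2 had a mean of 13.1 FPKM.

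Among the transcription factors that carry the response, the RNA of Atf4 was at 149, 139 and 163 FPKM in the controls and at 160, 109 and 168 FPKM in the knockouts. The groups overlapped, with K15SKO 2 lowest of all and K15SKO 3 highest. The log2 difference, here and below K15SKO minus MyoCre on the log2(FPKM + 1) scale, was −0.07 (SE 0.19, limma adjusted p = 0.851). Since ATF4 is set largely by translation, this is a statement on its RNA only. Its position in GRCm38 is chromosome 15, 80255184 to 80257541, plus strand.

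Atf5, a relative of Atf4 that is also controlled by translation and is linked to the mitochondrial branch, was at 33.5, 30.02 and 28.7 FPKM in the controls and at 33.9, 34.6 and 36.2 FPKM in the knockouts. Every K15SKO value was above every MyoCre value, but by little: the ratio of the means was 1.14 and the log2 difference 0.18 (SE 0.10, limma adjusted p = 0.378). Atf5 lies on the minus strand of chromosome 7 from 44812256 to 44816658, where Nup62 and Il4i1 overlap it on the other strand by 571 and 272 bases. As the sources used here give no strand information for the libraries, reads of that overlap cannot be assigned with certainty. Groups without overlap were found for 3 of the 10 genes, against 17.8% of all rows. Atf5 was the 1 on the higher side, against 10.1% of rows, and Chac1 and Sesn2 the 2 on the lower side, against 7.68%.

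Ddit3 encodes CHOP, the factor tied to cell death under lasting stress. It was at 11.2, 11.9 and 10.5 FPKM in the controls and at 12.2, 6.97 and 13.7 FPKM in the knockouts. As for Atf4, K15SKO 2 was the lowest and K15SKO 3 the highest library, on either side of a narrow control range. The log2 difference was −0.08 (SE 0.23, limma adjusted p = 0.860), and 0.13 for Atf4 and 0.19 for Ddit3 without K15SKO 2, the library with the most hepatocyte transcripts. The part of those transcripts in the lower values was not tested. Ddit3, on chromosome 10 from 127290774 to 127296288, overlaps Mars by 68 bases.

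Trib3 encodes a pseudokinase induced by ATF4 and CHOP that in turn restrains them. It was at 0.738, 0.803 and 0.893 FPKM in the controls and at 0.335, 1.23 and 0.705 FPKM in the knockouts. K15SKO 1 and 2 were the lowest and the highest of the 6 libraries, so the group spread outward rather than in 1 direction. With no filter the log2 difference was −0.08 (SE 0.20, limma adjusted p = 0.856). The promoter window of Trib3, like that of Chac1, holds a TGATGNAA match, shown above, as do 3.97% of all windows. The K15SKO values of Trib3 did not share the pattern of Chac1. Both genes lie on chromosome 2, Trib3 from 152337422 to 152344032.

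Sesn2 encodes sestrin 2, a leucine sensor that holds back growth signalling by mTORC1. It was at 1.92, 1.31 and 1.48 FPKM in the controls and at 0.991, 1.20 and 1.24 FPKM in the knockouts. All K15SKO values were below the controls, the nearest by a small margin, at 1.24 against 1.31 FPKM. The log2 difference was −0.26 (SE 0.16, limma adjusted p = 0.406). At such levels the pseudocount weighs on the result: with 0.1 in place of 1 the log2 difference was −0.41. Sesn2 lies on chromosome 4 from 132492032 to 132510501 and shares 6089 bases with Gm12981.

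Chac1, the glutathione-cleaving effector, was at 142, 129 and 190 FPKM in the controls and at 31.9, 31.9 and 74.4 FPKM in the knockouts. All 3 K15SKO values were below all controls, at 20.8%, 20.8% and 48.5% of the MyoCre mean. The highest K15SKO value, that of K15SKO 3, was 74.4 FPKM against a lowest control of 129 FPKM. The log2 difference was −1.81 (SE 0.35, limma adjusted p = 0.248, unadjusted p = 0.00176), which was the 39th lowest of 11607 differences. By exact permutation, two-sided, p was 0.1, which is the lowest value possible for groups of 3. The log2 difference stayed between −2.21 and −1.61 over 16 alternative settings, and the adjusted p ran from 0.00456 to 0.582. K15SKO 1 and 2 had the same Chac1 level, with Klf15 at 2.22 and 21.7 FPKM. K15SKO 2 is also the library with 6711 FPKM of hepatocyte markers, and the part of RNA from another tissue in its Klf15 value was not tested. Without K15SKO 2 the log2 difference of Chac1 was −1.61 (SE 0.37, limma adjusted p = 0.358), that of Mthfd2 1.34 and that of Psat1 1.02. The libraries with the lowest Chac1 were also those with the lower fibre sums, 37511 and 38267 FPKM, and the part of fibre content in Chac1 was not tested. Chac1 occupies bases 119351229 to 119354381 of chromosome 2 (plus strand) with no other annotated gene overlapping it.

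A fit without K15SKO 3, for whose removal the labels offer no reason, brought Chac1 past the threshold, with a log2 difference of −2.21 (SE 0.18, limma adjusted p = 0.00456). Psat1 and Mthfd2 passed too, so that 3 members were called in that fit, where 24.2% of all tested genes were. Weighting the libraries by their spread called the same 3 members, against 20.7% of all tested genes. Calls were common over the whole transcriptome in those fits, so they do not set these genes apart. Because Chac1 was lower in K15SKO 3 as well, whereas Psat1 and Mthfd2 were not, the 3 genes differ in what that library shows.

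**Figure D2:**
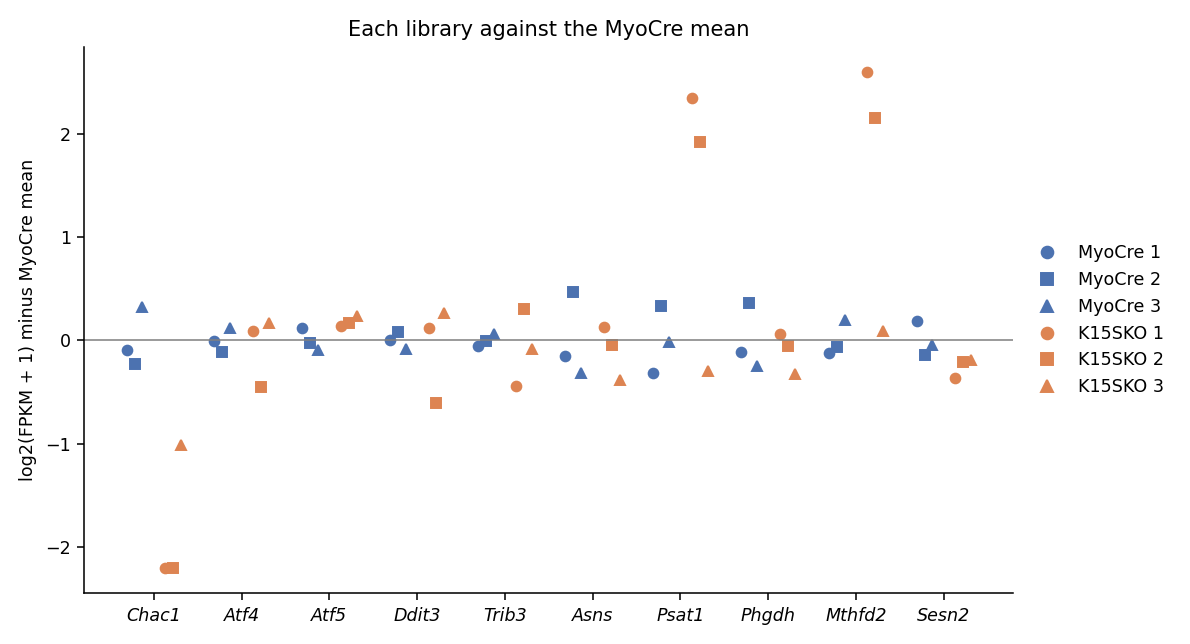
Each library's log2(FPKM + 1) minus the MyoCre mean for the 10 genes; blue points are MyoCre and orange points K15SKO libraries, with the shape giving the library number. Chac1 is down by 2.21, 2.21 and 1.01 in K15SKO 1 to 3, Psat1 and Mthfd2 are up by 1.92 to 2.60 in K15SKO 1 and 2, and most other points lie near 0.

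Psat1 and Phgdh are neighbours in the pathway that makes serine from a glycolytic intermediate, with Phgdh catalysing the first step, Psat1 the second and Psph the last. Psat1 was at 0.507, 1.37 and 0.858 FPKM in the controls and at 8.57, 6.13 and 0.528 FPKM in the knockouts. K15SKO 1 and 2 were far above all controls, at 940% and 673% of the MyoCre mean, whereas K15SKO 3 was at 57.9% and within the control range. The log2 difference over the group was 1.32 (SE 0.67, limma adjusted p = 0.344, exact permutation p = 0.3), and 2.14 without K15SKO 3 (SE 0.24, limma adjusted p = 0.00774). Psat1 lies on the minus strand of chromosome 19 from 15904678 to 15947337, and the processed pseudogene Gm3329 lies within it on the other strand.

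Phgdh was at 0.687, 1.33 and 0.536 FPKM in the controls and at 0.897, 0.750 and 0.458 FPKM in the knockouts, so the groups overlapped and K15SKO 1 and 2 did not stand out. With no filter its log2 difference was −0.11 (SE 0.20, limma adjusted p = 0.789). The gene lies on chromosome 3 from 98313170 to 98339990. Psph was at 6.83, 6.83 and 7.70 FPKM in the controls and at 5.66, 4.74 and 6.88 FPKM in the knockouts, where K15SKO 1 and 2 were below the controls (log2 difference −0.28, limma adjusted p = 0.337). Of the 3 steps only Psat1 was above all controls in K15SKO 1 and 2, and the ratio of Psat1 to Phgdh was 9.55, 8.17 and 1.15 in K15SKO 1 to 3 against 0.738, 1.03 and 1.60 in MyoCre.

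Mthfd2 encodes the mitochondrial enzyme that oxidises the folate-bound one-carbon unit drawn from serine, and is best known from embryonic and dividing cells. It was at 2.36, 2.50 and 3.20 FPKM in the controls and at 21.2, 15.3 and 2.91 FPKM in the knockouts. As for Psat1, K15SKO 1 was highest, K15SKO 2 next and K15SKO 3 within the control range, at 788%, 569% and 108% of the MyoCre mean. The log2 difference was 1.61 (SE 0.62, limma adjusted p = 0.289, exact permutation p = 0.2), and 2.37 without K15SKO 3 (SE 0.17, limma adjusted p = 0.00367). K15SKO 1 and 2 above all controls with K15SKO 3 inside the control range was a pattern of 968 tested genes, or 8.34%. The gene lies on the minus strand of chromosome 6 from 83305691 to 83325908, and Gm43890 overlaps it by 2799 bases on the same strand.

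The libraries with high Psat1 and Mthfd2 were those with high markers of regenerating or denervated fibres and of macrophages. In K15SKO 1 and 2, 11 and 10 of the 12 regeneration and denervation markers were above all controls, and all 12 of 12 macrophage markers in both. In K15SKO 3 these counts were 7 of 12 and 0 of 12, while 3 regeneration and denervation markers and 7 macrophage markers were below all controls. Myog, the myogenic factor of fusing myoblasts and denervated fibres, was at 31.9, 27.3 and 3.90 FPKM in the knockouts against 1.84 to 2.36 FPKM in the controls. No marker of regeneration, denervation or macrophages was at 0 in all libraries of a group. Hepatocyte markers summed to 94.9, 6711 and 20.8 FPKM in K15SKO 1 to 3, against 20.9 to 39.4 FPKM in the controls. Fibroblast and tendon markers summed to 393, 266 and 187 FPKM in the knockouts against 196 to 221 FPKM in the controls. Of these 10 markers 8, 6 and 4 were above all controls in K15SKO 1 to 3, and 2, 3 and 5 were below them. Endothelial markers had 7 and 5 of 7 below all controls in K15SKO 1 and 2 and 1 in K15SKO 3, and Schwann cell and nerve markers 5 and 6 of 6 and 0. In K15SKO 3, 5 of the 7 endothelial and 3 of the 6 Schwann cell and nerve markers were above all controls. Muscle fibre markers were lower in K15SKO 1 and 2 too, as given above. What part these cells or fibre states had in the values of Psat1 and Mthfd2 was not tested.

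**Figure D3:**
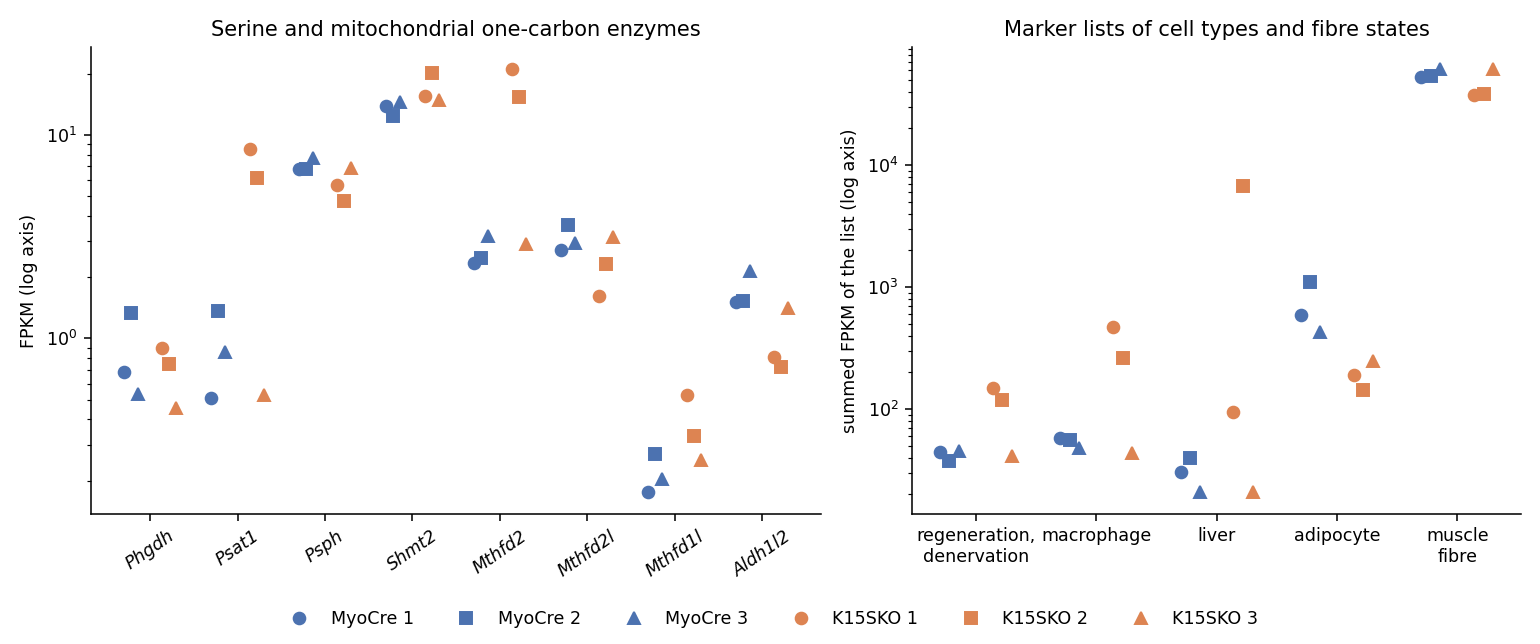
Left, FPKM of serine and mitochondrial one-carbon enzymes by library on a log axis; right, summed FPKM of marker lists by library on a log axis. Psat1 and Mthfd2 are high in K15SKO 1 and 2, as are the sums of regeneration and macrophage markers (119 to 150 and 261 to 475 FPKM), and the liver sum is highest in K15SKO 2 at 6711 FPKM.

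Asns encodes asparagine synthetase, a classic target of ATF4 under amino acid shortage. It was at 0.868, 1.86 and 0.664 FPKM in the controls and at 1.26, 1.00 and 0.588 FPKM in the knockouts. The groups overlapped, and the log2 difference was −0.10 (SE 0.27, limma adjusted p = 0.833), turning to 0.13 without MyoCre 2 and to 0.04 without K15SKO 3. MyoCre 2 had the highest Asns, Psat1 and Phgdh of the controls and also the most adipocyte transcripts, with a marker sum of 1110 FPKM against 592 and 429 FPKM in MyoCre 1 and 3 and 144 to 249 FPKM in the knockouts. In K15SKO 1 to 3, 9, 9 and 10 of the 10 adipocyte markers were below all controls, and none was at 0 in a whole group. The part of fat cells in the 3 genes was not tested. Asns lies on chromosome 6 from 7675169 to 7693254.

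The wider pathway was read from 8 lists with 124 genes, of which 123 were in the table and 113 were tested. None passed the limma threshold, where the lowest adjusted p was 0.251. At an unadjusted limma p under 0.05 there were 6 higher and 9 lower, or 13.3% of the 113 against 16.5% of all genes, and groups without overlap made up 23.0% against 24.7% of all tested genes. Without K15SKO 3 limma called 26 of them, 9 higher and 17 lower, or 23.0% against 24.2% of all genes. These shares were near those of the whole transcriptome. Their median log2 difference was 0.00 against −0.02 over all genes tested.

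Of the genes for eIF2 kinases and their regulators, phosphatase subunits, eIF2 and eIF2B, 16 of 16 were tested and 0 passed (median log2 difference −0.07). Eif2ak2, the kinase PKR that senses double-stranded RNA, was at 2.95, 2.28 and 1.91 FPKM in the knockouts against 1.02, 1.26 and 1.37 FPKM in the controls, without overlap (log2 difference 0.60, limma adjusted p = 0.269). Impact, an inhibitor of the amino acid sensor GCN2, was at 5.46, 5.72 and 7.49 FPKM against 7.92, 8.08 and 10.6 FPKM (log2 difference −0.45, limma adjusted p = 0.280). Eif2b4, a subunit of the exchange factor that phosphorylated eIF2 blocks, stood at 31.4 ± 1.26 against 26.0 ± 2.86 FPKM, and Ppp1r15b, a phosphatase subunit that reverses the phosphorylation, at 6.04 ± 0.735 against 7.43 ± 0.756 FPKM (mean ± SD of 3 libraries). Each of these 4 genes had groups without overlap, but they were named for the smallest p of the list. In the whole list of 16, 3 genes were without overlap on the higher side and 2 on the lower. Of all tested genes 24.7% were without overlap.

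Among bZIP factors and feedback regulators 14 of 15 were tested and 0 passed (median log2 difference 0.02). Atf3, a stress-induced factor that is itself a target of ATF4, was at 41.2, 24.2 and 10.1 FPKM in the knockouts against 3.89, 5.37 and 9.54 FPKM in the controls. The groups did not overlap, though K15SKO 3 exceeded MyoCre 3 by little, and the log2 difference was 1.72 (SE 0.52, limma adjusted p = 0.272). Trib2, a relative of Trib3, was at 6.40, 5.82 and 5.43 FPKM against 7.09, 10.9 and 14.9 FPKM (log2 difference −0.74, limma adjusted p = 0.273). Cebpg, a partner of ATF4 on its response element, was at 13.8, 12.7 and 22.1 FPKM against 19.4 ± 0.544 FPKM (mean ± SD of 3 libraries), with K15SKO 1 and 2 below and K15SKO 3 above the controls. Nfe2l2, the antioxidant regulator, stood at 19.1 ± 4.24 against 21.3 ± 1.52 FPKM (mean ± SD of 3 libraries).

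Enzymes of serine, one-carbon, proline and transsulfuration metabolism outside the 10 genes were 16, of which 15 were tested and 0 passed (median log2 difference 0.11). Shmt2, which hands the one-carbon unit of serine to mitochondrial folate, was at 15.6, 20.2 and 14.8 FPKM in the knockouts against 13.9, 12.4 and 14.4 FPKM in the controls (log2 difference 0.28, limma adjusted p = 0.336). Aldh1l2, which burns mitochondrial formyl-folate, went the other way at 0.808, 0.725 and 1.42 FPKM against 1.504, 1.52 and 2.14 FPKM (log2 difference −0.47, limma adjusted p = 0.303). Gpt2, a mitochondrial alanine transaminase, was at 69.4, 88.0 and 135 FPKM against 134 ± 14.4 FPKM (mean ± SD of 3 libraries), low in K15SKO 1 and 2 alone. Aldh1l1, at 4.24, 34.7 and 6.24 FPKM against 3.17 ± 0.281 FPKM (mean ± SD of 3 libraries), was highest in K15SKO 2, the library with 6711 FPKM of hepatocyte markers. The part of liver transcripts in this value was not tested.

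Amino acid transporters were represented by 11 genes in the table, 6 of them tested and 0 past the threshold (median log2 difference −0.27); Slc7a5 was not analysed here. Slc1a5, the glutamine carrier, was at 7.05, 4.16 and 6.04 FPKM in the knockouts against 16.3, 27.2 and 11.2 FPKM in the controls, without overlap (log2 difference −1.45, SE 0.32, limma adjusted p = 0.251). Its highest control was MyoCre 2, the library with the highest adipocyte sum, and the part of fat cells was not tested. Slc38a2, a transporter of small neutral amino acids that ATF4 induces, was at 26.7, 21.2 and 42.9 FPKM against 48.0, 57.6 and 53.3 FPKM (log2 difference −0.84, SE 0.25, limma adjusted p = 0.272). As for Chac1, K15SKO 3 was nearest to the controls. Slc6a9 stood at 3.32 ± 1.11 against 2.85 ± 0.174 FPKM and Slc43a1 at 6.52 ± 1.90 against 8.85 ± 2.47 FPKM (mean ± SD of 3 libraries).

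The cytosolic tRNA synthetases, many of which ATF4 induces together, were all tested, and 0 of 20 passed (median log2 difference 0.01). Hars and Kars, the enzymes for histidine and lysine, were both without overlap, with Hars at 21.6 ± 2.19 against 15.3 ± 1.38 FPKM and Kars at 67.0 ± 8.30 against 49.1 ± 4.40 FPKM (mean ± SD of 3 libraries). Both were named for the smallest p of the list. In the whole list of 20, 4 genes were without overlap on the higher side and 0 on the lower. The share without overlap over all tested genes was 24.7%. Yars, the enzyme for tyrosine, was at 13.5, 14.1 and 21.8 FPKM in the knockouts against 20.8, 20.3 and 24.2 FPKM in the controls, low in K15SKO 1 and 2 alone. Lars stood at 15.1 ± 1.92 against 12.4 ± 1.34 FPKM (mean ± SD of 3 libraries). The list held members on either side of 0 and none beyond a log2 difference of 0.47.

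Chaperones and sensors of the endoplasmic reticulum were 21, of which 0 passed (median log2 difference 0.06). Herpud1, which serves the removal of misfolded proteins, was at 49.5, 57.4 and 100.03 FPKM in the knockouts against 103, 114 and 112 FPKM in the controls (log2 difference −0.73, limma adjusted p = 0.283). Dnajb9, a cochaperone of BiP, was at 19.0, 21.4 and 31.5 FPKM against 34.3, 40.8 and 35.4 FPKM (log2 difference −0.63, limma adjusted p = 0.272). Both were low in K15SKO 1 and 2 and just under the controls in K15SKO 3. Syvn1, a ubiquitin ligase of the same organelle, stood at 9.19 ± 0.111 against 11.1 ± 0.722 FPKM, whereas Pdia4, a disulfide isomerase, stood higher at 5.71 ± 1.22 against 3.70 ± 0.571 FPKM (mean ± SD of 3 libraries).

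Of the mitochondrial chaperones, proteases and stress signals 11 of 13 were tested and 0 passed (median log2 difference 0.08). Hspe1, the small chaperonin of the matrix, was at 102, 112 and 60.3 FPKM in the knockouts against 61.0 ± 3.37 FPKM in the controls (mean ± SD of 3 libraries), high in K15SKO 1 and 2 alone. Hspa9 stood at 208 ± 12.8 against 174 ± 9.35 FPKM and the protease subunit genes Clpx and Yme1l1 at 23.8 ± 3.50 against 31.5 ± 3.31 FPKM and 17.1 ± 2.05 against 21.0 ± 1.73 FPKM (mean ± SD of 3 libraries). The secreted signals Gdf15 and Fgf21, markers of mitochondrial stress in muscle, were under 1 FPKM in every library. Gdf15 was listed at 0 in MyoCre 1 to 3 and in K15SKO 3 and at 0.328 and 0.125 FPKM in K15SKO 1 and 2.

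Glutathione turnover, the process that Chac1 serves, was read from 11 further genes, 10 of them tested and 0 past the threshold (median log2 difference 0.08). Chac2, the constitutive relative of Chac1, was at 11.7, 14.8 and 11.8 FPKM in the controls and at 10.6, 14.2 and 12.4 FPKM in the knockouts, with overlapping groups and a log2 difference of −0.04 (limma adjusted p = 0.884). Ggct, which cleaves gamma-glutamyl dipeptides, was at 1.94, 1.86 and 1.80 FPKM in the knockouts against 2.18, 2.78 and 3.97 FPKM in the controls (log2 difference −0.45, limma adjusted p = 0.295). Gss, which completes glutathione synthesis, stood at 3.77 ± 0.537 against 2.73 ± 0.384 FPKM and Lap3 at 32.6 ± 6.14 against 25.4 ± 2.65 FPKM (mean ± SD of 3 libraries). Oplah, which recycles oxoproline, the product of Chac1 and Ggct, was at 7.9997, 8.34 and 17.6 FPKM against 14.1, 16.9 and 17.2 FPKM, low in K15SKO 1 and 2 alone (log2 difference −0.55, limma adjusted p = 0.352).

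**Figure D4:**
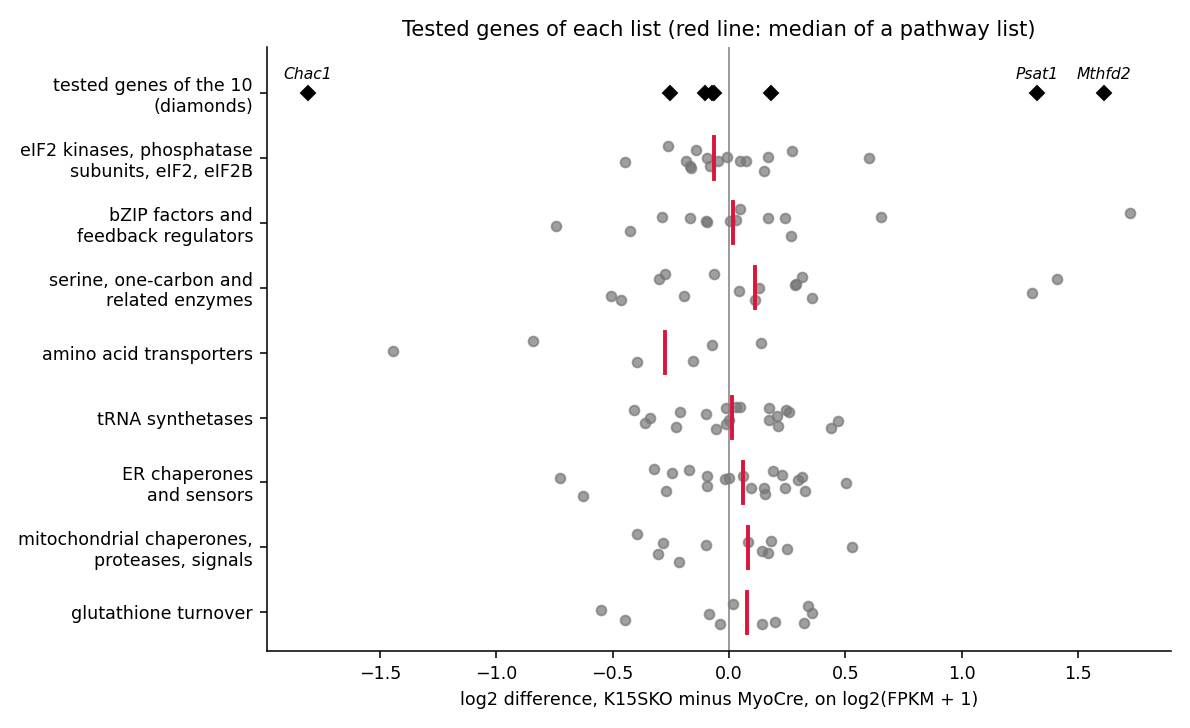
Log2 difference of each tested gene (grey points) in the 8 pathway lists, with the list's median in red, and of the 8 tested genes of the set (diamonds). The medians lie between −0.27 and 0.11, and Chac1, Psat1 and Mthfd2 lie at −1.81, 1.32 and 1.61.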

How the data were processed

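RNA sequencing of total RNA gave 6 libraries. The tools Cufflinks, Cuffdiff and STAR and the build mm10 are named per the submitters' processing notes; no source used here gives versions or strandedness. What the authors deposited is 1 FPKM value per library for 23314 genes; the unit was inferred from those programs and the range of values. Without counts, no count test was run. Column names were tied to libraries through the descriptions. Gene positions are those of GENCODE M21 (GRCm38).

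The main test was limma 3.58.1 (R 4.3.3, eBayes with trend, two-sided) on log2(FPKM + 1) for the 11607 genes averaging 1 FPKM or more, and Benjamini-Hochberg adjustment ran over all of them. On this scale changes of low genes come out too small. Fits without a library used the same genes but for those left with no variation, which gave 11597 to 11604. The fit was tested on simulated data with all libraries drawn from the MyoCre means and SDs. It called 87 of 100 genes changed by a log2 of 1, 97 of 100 changed by 2, and 5 of 11407 unchanged genes. The changed genes were drawn only from those with a MyoCre mean above 2 on the log2(FPKM + 1) scale. Recovery of changes in lower genes was thus not covered. The simulation lacked the spread among the K15SKO libraries, so it does not tell how many changes are found in the real data. Plots and tables used Python 3.11.15. Members, lists and motifs were chosen with earlier results of these data known. Named are the 10 genes, Klf15, Chac2, the most abundant markers and the 5 genes most like Chac1. From each pathway list up to 4 genes were named by smallest p. Psph, Myog, Alb, Hp, Trf, Slc7a5, Gdf15 and Fgf21 were named after their values were seen. There were 4 list symbols matched through RefSeq synonyms.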

Additional observations from a re-analysis of the deposited data

How the results depend on the processing

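The 16 alternatives were each library left out, the replicate block, array weights, eBayes robust or without trend, quantile or median-of-ratios scaling, filters of 0 and 5 FPKM, and pseudocounts of 0.1 and 0.5. Under them Chac1, Psat1, Mthfd2, Atf5 and Sesn2 kept their direction wherever they could be fitted. Array weights called 2398 genes, 3 of the 10 and 23 of the pathway lists; no filter called 3 genes. Leaving out each library in turn gave 3 to 2802 called genes, 0 to 3 of the 10 and 0 to 26 of the lists; 3 genes were called without MyoCre 1 and without MyoCre 2, and 2802 without K15SKO 3. The sign turned for Asns (range −0.26 to 0.13), Atf4 (−0.18 to 0.13), Ddit3 (−0.25 to 0.19), Phgdh (−0.23 to 0.071) and Trib3 (−0.26 to 0.11) when a library was left out, and for Trib3 with array weights (0.0033). The cause was not tested.

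Same-numbered libraries correlated in their deviations from the group means at 0.0024, 0.0851 and 0.0942. The best match in the other group had the same number for libraries 2 and 3, and number 2 for library 1. With 3 libraries per group such values cannot decide whether same-numbered libraries were paired, and the labels name no pairing. The replicate block called 3 genes and none of the 10. Absolute depth is unknown, and genes near 1 FPKM rest on few reads.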

Other observations

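The ratio of Chac1 to Atf4 within a library, which does not depend on the library's scaling, was 0.953, 0.928 and 1.17 in the controls and 0.200, 0.294 and 0.442 in the knockouts. The ratio of Chac1 to its relative Chac2 was 12.1, 8.67 and 16.1 in the controls and 3.02, 2.25 and 5.98 in the knockouts. Neither ratio overlapped between the groups, with an exact permutation p = 0.1 for each, the smallest that 3 against 3 libraries allow. Both ratios rest on the Chac1 values given above, which had no overlap themselves, so they are no separate result. The ratio of Atf3 to Atf4 was 0.0262, 0.0388 and 0.0587 in the controls and 0.258, 0.222 and 0.0604 in the knockouts.

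The genes whose pattern over the 6 libraries was most like that of Chac1 were Tmem140, Mettl21c, Casr, Fbp2 and Nmrk2. Likeness was the root-mean-square difference of log2(FPKM + 1) centred on the MyoCre mean, and it was 0.24, 0.27, 0.30, 0.34 and 0.37. Fbp2, the fructose bisphosphatase of muscle, was at 40.4, 38.8 and 40.1 FPKM in the controls and at 8.35, 13.5 and 21.6 FPKM in the knockouts. Nmrk2, a kinase that makes a precursor of NAD in muscle, was at 66.0, 116 and 125 FPKM in the controls and at 31.1, 23.3 and 53.3 FPKM in the knockouts. Casr, the calcium-sensing receptor, was at 5.23, 6.52 and 8.84 FPKM in the controls and at 1.26, 1.38 and 2.93 FPKM in the knockouts. For all 5, as for Chac1, K15SKO values lay below every control and K15SKO 3 was the highest of its group. The 5 were picked for likeness to Chac1 in these same values, so these shared traits are no further result. With 6 libraries many genes can share such a pattern, and none of the 5 passed the limma threshold.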
